A study of Saccharomyces cerevisiae and Schizosaccharomyces pombe with 8 samples.

Results

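The genes fhn1, hst2, pvg1 and ubp6 of the fission yeast Schizosaccharomyces pombe were followed position by position past their stop codons. They are 4 of 5113 annotated coding genes. They were chosen by their read counts at 3′ ends: both main cleavage and polyadenylation sites lie past the stop codon, and the distal one takes over in a PAB2 mutant set against wild type. Of the 5113 genes, 4283 had at least 2 sites and 3509 had both main sites past the stop codon. The counts that chose the 4 genes come from the PAB2 mutant and wild-type libraries in rich medium, so results from that pair are given as a description, with no test.

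The study sequenced 3′ ends of polyadenylated RNA in 2 yeasts. Only its S. pombe libraries are used here, 4 in all and 1 for each group: a PAB2 mutant in rich medium (4488357 reads), wild type in rich medium (3647664 reads), a PCF11 mutant in minimal medium (3414864 reads) and wild type in minimal medium (2702105 reads). The labels give no alleles, no medium recipes and no further strain details, and they separate the groups by the named mutant gene and the medium alone. No group has a replicate, so every interval below is a 95% interval for counting error only. The reads carry no molecular identifiers that the sources used here mention and need not be independent molecules. In RNA from a whole culture, fewer cells using a site and less RNA per cell cannot be told apart.

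A polyadenylation site is where the nascent transcript is cut and given its poly(A) tail. A gene with several sites in its 3′ untranslated region (3′ UTR) makes mRNAs that encode the same protein and differ in the length of that region. Pab2 is the nuclear poly(A)-binding protein of fission yeast, the relative of human PABPN1, and is known to take part in nuclear RNA decay with the exosome. Pcf11 is a subunit of the cleavage factor that binds the tail domain of RNA polymerase II and is needed for 3′ end processing and transcription termination.

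The genes do different work. fhn1 encodes a plasma membrane protein of the eisosome, a furrow-like membrane domain. hst2 encodes a sirtuin, an NAD-dependent protein deacetylase. pvg1 encodes the pyruvyltransferase that caps galactose residues of cell surface glycans with pyruvate, and ubp6 encodes a deubiquitinating enzyme that works at the proteasome.

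Sites were built by joining cleavage positions within 24 nt of a most used position, and the proximal and the distal of the 2 most used sites over the 4 libraries were compared. The distances past the stop codon were 1016 and 1662 nt for fhn1, 17 and 558 nt for hst2, 36 and 469 nt for pvg1, and 127 and 1115 nt for ubp6. The gap between the sites was 646, 541, 433 and 988 nt in that order of genes, against a median of 110 nt over the 2118 genes with enough reads in the PAB2 pair. A gap of at least that of pvg1, the shortest of the 4, occurred in 20.3% of those genes, and one of at least that of ubp6 in 9.49%. The distal site lay 0 nt from the annotated transcript end in ubp6, 7 nt in pvg1, 12 nt in hst2 and 240 nt in fhn1. A distal site within 12 nt of the annotated end, a limit set by hst2 after its value was seen, was found in 18.9% of the 2118 genes.

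The genome around each most used position is printed on the gene's strand, 5′ to 3′, because these 8 positions define the compared sites. Capitals mark the reported cleavage position and, where present, the hexamer AATAAA. Coordinates are those of the deposited positions, on ASM294v2.
fhn1 proximal, II:527633-527662, plus strand: gccaaccaaccagcatttttttcatAttct
fhn1 distal, II:528279-528308, plus strand: ttttatatacaacgtttccaaaacaAgtgc
hst2 proximal, III:1330212-1330241, plus strand: gatgaatagttcagttattcgggaaAtttt
hst2 distal, III:1330753-1330782, plus strand: tAATAAAactttgaattatccaagaAttgg
pvg1 proximal, I:2870080-2870109, minus strand: gaaatataattctttagcatttttaActct
pvg1 distal, I:2869647-2869676, minus strand: AATAAAtttattttcattttattaaAgttt
ubp6 proximal, I:3261209-3261238, plus strand: gttttaatagaagggctgggtcatgAttta
ubp6 distal, I:3262197-3262226, plus strand: ctcaatatattcagctatatacagaAtatt

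All 8 reported positions are an A followed by another base. A poly(A) tail cannot be told from genomic A, so the cut may lie before an A of the genome that precedes the tail. The hexamer AATAAA, the classical polyadenylation signal, was searched on the gene's strand between 10 and 35 nt upstream of each position. It was present at the distal sites of hst2 and pvg1, starting 24 and 25 nt upstream, and at none of the 4 proximal sites. Over the 2118 genes it stood at 17.2% of distal sites and 13.5% of proximal sites. The variant ATTAAA was at none of the 8 sites, against 4.15% of distal and 4.82% of proximal sites of all genes. The trinucleotide GTA within 30 nt downstream was found at both ubp6 sites and at the distal site of fhn1, against 58.8% of distal and 45.6% of proximal sites of all genes. These matches describe letters in a window and are not evidence that a factor binds there.

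**Figure D1:**
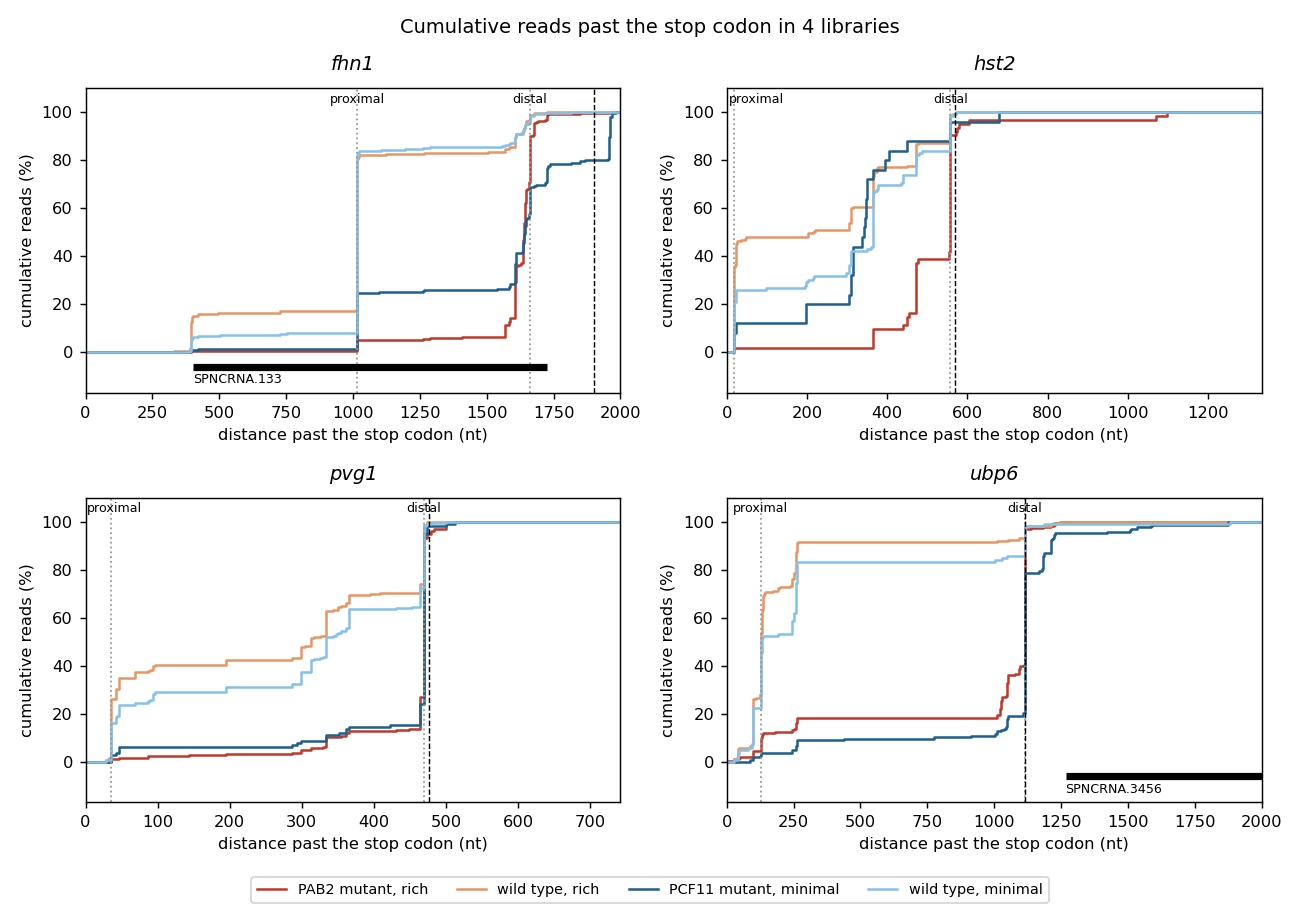
Cumulative share of reads (vertical axis, percent) against distance past the stop codon (horizontal axis, nt) for the 4 genes, with 1 line for each library. Dotted lines mark the proximal and distal sites, dashed lines the annotated transcript end and black bars same-strand noncoding RNAs. In fhn1 and pvg1 the PAB2 mutant line stays low until shortly before or at the distal site. In hst2, 37.1% of the PAB2 mutant reads lie between the main sites. In ubp6 the bins of 100 nt up to 300 nt hold 36, 65 and 47 of its 817 reads. The line of wild type in rich medium takes its first steps at or before the proximal site in all 4 genes.

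fhn1 (SPBC1685.13) lies on the plus strand of chromosome II, with its coding sequence at 526091 to 526642 and an annotated 3′ UTR of 1902 nt. At its proximal site, position 527658, 61 reads were found in the PAB2 mutant and 2801 in wild type in rich medium, 283 in the PCF11 mutant and 4910 in wild type in minimal medium. Its distal site, position 528304, held 677 reads in the PAB2 mutant and 313 in wild type in rich medium, 291 in the PCF11 mutant and 449 in wild type in minimal medium. Both mutants were thus low at the proximal site, whereas the distal site had at least 291 reads in every library.

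Scaled to CPM (the usual read unit corrected for library size, here with TMM factors), the fhn1 proximal site stood at 14.3 CPM in the PAB2 mutant and 722 CPM in wild type in rich medium, 50.4-fold lower (39.1 to 66.0). The distal site stood at 159 CPM in the PAB2 mutant and 80.6 CPM in wild type, a ratio of 1.97 (1.72 to 2.26). The distal share, the distal reads as a percentage of the reads at both main sites, reached 91.7% in the PAB2 mutant (89.5 to 93.6) and 10.1% in wild type (9.02 to 11.2). The switch of fhn1 therefore lay mostly in the loss of proximal reads.

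A further fhn1 site at 394 nt, position 527036, behaved like the proximal one. It held 9 reads in the PAB2 mutant and 628 in wild type in rich medium, 11 in the PCF11 mutant and 389 in wild type in minimal medium. A site at 1606 nt, position 528248, held 353, 278, 183 and 298 reads in the same order of libraries, and its ratio in the PAB2 pair was 1.16 (0.987 to 1.36). The sites before 1100 nt were thus low in both mutants, while those at 1606 and 1662 nt were well read in all 4 libraries.

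The same strand of the fhn1 3′ UTR carries the annotated noncoding RNA SPNCRNA.133, from 401 to 1724 nt past the stop codon, which contains both main sites. Of the fhn1 reads past the stop codon, 96.1% lay inside it in the PAB2 mutant and 85.1% in wild type in rich medium, 69.7% in the PCF11 mutant and 93.5% in wild type in minimal medium. The 3′ ends of fhn1 mRNA and of SPNCRNA.133 cannot be told apart there, since a 3′ end read does not show where its RNA began. The site at 394 nt lies before the noncoding RNA and its ratio in the PAB2 pair was 0.0131 (0.00595 to 0.0250). On the opposite strand of the whole 2000 nt, there were 1 read in the PAB2 mutant and 0 in wild type in rich medium, 3 in the PCF11 mutant and 0 in wild type in minimal medium.

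At the far end of the fhn1 stretch the 2 mutants, each grown in a different medium, differed. Between 1901 and 2000 nt, past nearly all of the annotated 3′ UTR, there were 245 reads in the PCF11 mutant and 1 in wild type in minimal medium, and 6 in the PAB2 mutant and 0 in wild type in rich medium. Of the PCF11 mutant's reads there, 113 were at 1957 nt and 100 at 1961 nt. Reads past the annotated end thus made up 20.1% of the fhn1 reads past the stop codon in the PCF11 mutant and 0.435% in the PAB2 mutant. From 2001 to 3000 nt there were 24 reads in the PAB2 mutant and 7 in wild type in rich medium, and 19 in the PCF11 mutant and 2 in wild type in minimal medium.

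hst2 (SPCC132.02) lies on the plus strand of chromosome III, with its coding sequence at 1329098 to 1330220 and an annotated 3′ UTR of 570 nt. It was the least read of the 4 genes. Its proximal site, 17 nt past the stop codon at position 1330237, held 1 read in the PAB2 mutant and 88 in wild type in rich medium, 3 in the PCF11 mutant and 31 in wild type in minimal medium. Its distal site, position 1330778, held 35 reads in the PAB2 mutant and 24 in wild type in rich medium, 2 in the PCF11 mutant and 19 in wild type in minimal medium. The PCF11 mutant therefore had almost no reads at either main site.

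The proximal ratio of hst2 in the PAB2 pair, from 1 read, was 0.0104 (0.000259 to 0.0593). The distal ratio was 1.33 (0.769 to 2.34), an interval that includes no change. The distal share reached 97.2% in the PAB2 mutant (85.5 to 99.9) and 21.4% in wild type in rich medium (14.2 to 30.2). As in fhn1, the switch of hst2 came from the proximal site.

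Between its main sites hst2 had weaker ones at 311, 364 and 472 nt. The site at 364 nt held 5 reads in the PAB2 mutant and 31 in wild type in rich medium, 7 in the PCF11 mutant and 33 in wild type in minimal medium. The site at 472 nt held 17 reads in the PAB2 mutant and 19 in wild type in rich medium, 1 in the PCF11 mutant and 12 in wild type in minimal medium. In the PAB2 pair the ratio was 0.0104 at 17 nt, 0.147 (0.0446 to 0.381) at 364 nt, 0.816 (0.398 to 1.66) at 472 nt and 1.33 at 558 nt, while the site at 311 nt held 0 reads in the mutant against 18 in wild type. The sites up to 364 nt were thus low in the PAB2 mutant, while the intervals at 472 and 558 nt included no change.

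In the PCF11 mutant the hst2 reads past the stop codon numbered 25, of which 15 lay between 301 and 400 nt. Opposite the hst2 3′ UTR lies the antisense noncoding RNA SPNCRNA.7319, at 181 to 511 nt. It held 56 reads in the PAB2 mutant and 8 in wild type in rich medium, 68 in the PCF11 mutant and 14 in wild type in minimal medium. Both mutants were high in antisense reads and low in hst2 reads, and the part of one in the other was not tested. The files give strand, so these reads were counted apart.

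pvg1 (SPAC8F11.10c) lies on the minus strand of chromosome I, with its coding sequence at 2870120 to 2871325 and an annotated 3′ UTR of 476 nt. Its proximal site, position 2870084, held 5 reads in the PAB2 mutant and 163 in wild type in rich medium, 7 in the PCF11 mutant and 121 in wild type in minimal medium. Its distal site, position 2869651, held 267 reads in the PAB2 mutant and 138 in wild type in rich medium, 97 in the PCF11 mutant and 183 in wild type in minimal medium. The distal position alone took 66.4% of the pvg1 reads past the stop codon in the PAB2 mutant and 24.6% in wild type in rich medium, where it tied with the proximal position at 115 reads each. In the other 3 libraries it was the most used single position.

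The pvg1 proximal site was 35.8-fold lower in the PAB2 mutant (15.0 to 112), and the distal site had a ratio of 1.76 (1.43 to 2.18). The distal share reached 98.2% in the PAB2 mutant (95.8 to 99.4) and 45.8% in wild type in rich medium (40.1 to 51.7). The interval of the wild-type share includes an even split, so the takeover in pvg1 starts from sites of similar use. The minor sites at 334 and 366 nt were also low in the mutant, with 19 and 6 reads in the PAB2 mutant and 78 and 22 in wild type.

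The stretch searched for pvg1 ended after 742 nt, at the start codon of the next gene on the strand, nnt1. nnt1 held 1523 reads in the PAB2 mutant and 1296 in wild type in rich medium, 632 in the PCF11 mutant and 652 in wild type in minimal medium. Past the annotated end of pvg1 and before nnt1 there were 16 reads in the PAB2 mutant and 1 in wild type in rich medium, 2 in the PCF11 mutant and 4 in wild type in minimal medium. The longer pvg1 RNA of the PAB2 mutant thus ended almost wholly within the annotated transcript.

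ubp6 (SPAC6G9.08) lies on the plus strand of chromosome I, with its coding sequence at 3259701 to 3261107 and an annotated 3′ UTR of 1115 nt that ends at the distal site. Its proximal site, position 3261234, held 63 reads in the PAB2 mutant and 84 in wild type in rich medium, 3 in the PCF11 mutant and 38 in wild type in minimal medium. Its distal site, position 3262222, held 496 reads in the PAB2 mutant and 11 in wild type in rich medium, 99 in the PCF11 mutant and 16 in wild type in minimal medium. Here the distal site was high in both mutants, and the proximal site was low only in the PCF11 mutant among the 4 libraries.

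The form of the change at ubp6 was thus the other way round from that of the other genes. A 3′ end read does not show where its RNA began. Distal reads from ubp6 mRNA and from another RNA of the same strand therefore cannot be told apart here either. Its distal site stood at 117 CPM in the PAB2 mutant and 2.83 CPM in wild type in rich medium, a ratio of 41.1 (22.8 to 82.9). Its proximal ratio was 0.684 (0.485 to 0.959). The distal share reached 88.7% in the PAB2 mutant (85.8 to 91.2) and 11.6% in wild type (5.92 to 19.8).

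The other ubp6 sites were not uniform. The site at 100 nt held 21 reads in the PAB2 mutant and 38 in wild type in rich medium, a ratio of 0.504 (0.281 to 0.881), and 3 in the PCF11 mutant and 22 in wild type in minimal medium. The site at 1047 nt held 117 reads in the PAB2 mutant and 1 in wild type in rich medium, 11 in the PCF11 mutant and 2 in wild type in minimal medium. The site at 258 nt held 47 reads in the PAB2 mutant and 35 in wild type in rich medium, a ratio of 1.22 (0.774 to 1.95), and 9 in the PCF11 mutant and 38 in wild type in minimal medium. From 301 to 1000 nt the 4 libraries together had reads in 3 bins of 100 nt, each with 1 read, all in the PCF11 mutant.

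The gene for a ribosomal protein of the large subunit, rpl2401, lies on the opposite strand at 309 to 838 nt, wholly between the ubp6 sites. It stood at 7957 CPM in the PAB2 mutant and 8039 CPM in wild type in rich medium, and at 3460 CPM in the PCF11 mutant and 5412 CPM in wild type in minimal medium. In the PAB2 pair the ubp6 distal site differed 41.1-fold and rpl2401 stood at nearly the same level. In the PCF11 pair the ubp6 distal site had a ratio of 7.47 and rpl2401 was lower in the mutant. A link between ubp6 and rpl2401 was not tested. A ubp6 RNA that ends at the distal site runs across the whole of rpl2401 in antisense.

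Past the annotated end of ubp6, which is the distal position itself, unscaled reads numbered 74 in the PAB2 mutant and 56 in the PCF11 mutant. Of these, 49 in the PAB2 mutant and 19 in the PCF11 mutant were at 1117 nt, within the distal site. More than 24 nt past the distal position there were 23 reads in the PAB2 mutant and 3 in wild type in rich medium. The PCF11 mutant had 36 there and wild type in minimal medium 2. The PCF11 mutant had the highest share past the annotated end. That share was 9.06% of the ubp6 reads past the stop codon in the PAB2 mutant and 1.60% in wild type in rich medium. It was 33.5% in the PCF11 mutant and 3.17% in wild type in minimal medium. The noncoding RNA SPNCRNA.3456, on the same strand from 1267 nt on, held 5 reads in the PAB2 mutant and 4 in wild type in rich medium, 31 in the PCF11 mutant and 2 in wild type in minimal medium. Before the stop codon there were 2 ubp6 reads in the PAB2 mutant and 10 in wild type in rich medium, 40 in the PCF11 mutant and 4 in wild type in minimal medium.

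**Figure D2:**
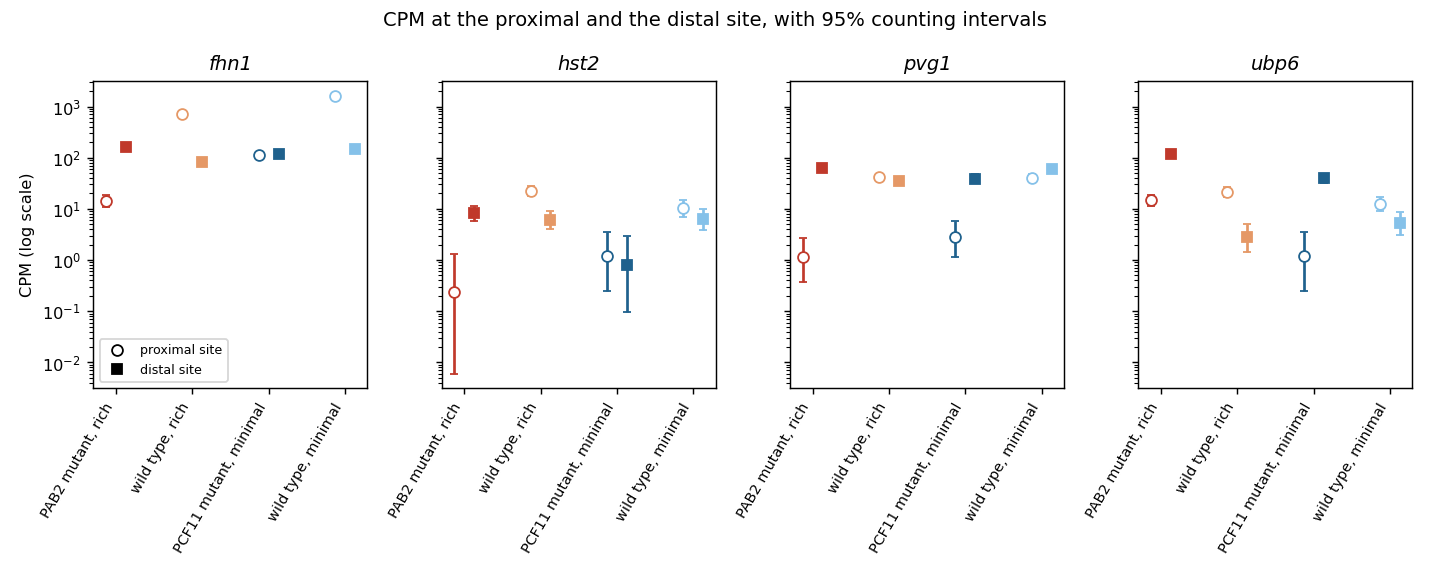
CPM (log axis) at the proximal (open circles) and distal (filled squares) site of each gene in the 4 libraries, with 95% counting intervals. In the PAB2 mutant fhn1, hst2 and pvg1 are low at the proximal site (14.3, 0.235 and 1.17 CPM), while ubp6 is high at the distal site (117 CPM against 2.83 CPM in wild type in rich medium).

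Read over all genes, the PAB2 pair gives the scale of the choice. The log2 change of distal over proximal use, from reads plus 1, was 6.61 in fhn1, 6.0 in hst2, 5.78 in ubp6 and 5.72 in pvg1 (PAB2 mutant over wild type in rich medium). They stood at ranks 3, 7, 9 and 11 of the 2118 genes whose main sites together held at least 100 reads in the pair. A change of at least 2-fold toward the distal site, which the 4 of 4 genes passed by their choice, was found in 33.9% of those genes, and a change of at least 32-fold in 0.803%. The median over the 2118 genes was 0.53. A distal share above 50% in the mutant and below 50% in wild type, the form of takeover by which the genes were picked, was met by 262 genes, or 12.4%.

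The 2 forms of the switch had unequal backgrounds. Proximal reads at least 2-fold lower were found in 12.5% of the 2118 genes and in fhn1, hst2 and pvg1. Distal reads at least 2-fold higher were found in 25.8% and in ubp6. The first without the second occurred in 10.3% of genes, the second without the first in 23.7%, and both together in 2.12%. Nothing is read from the members' counts here, since this pair chose them.

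**Figure D3:**
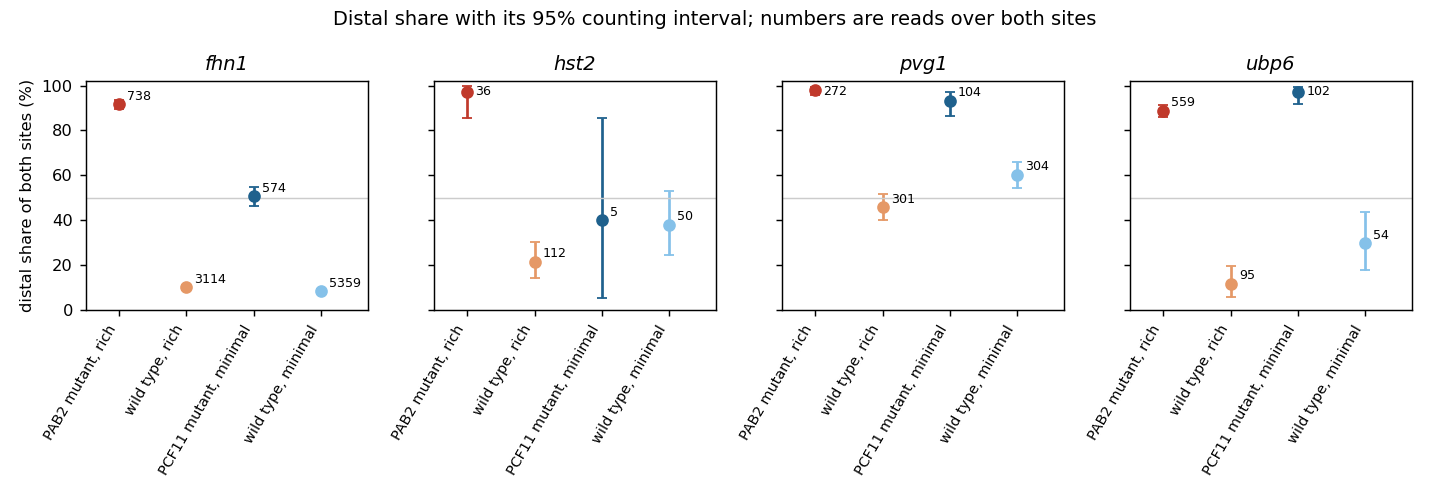
Distal share of the reads at both main sites (vertical axis, percent) in the 4 libraries for each gene, with exact 95% counting intervals and the number of reads. The PAB2 mutant lies between 88.7% and 98.2% in all 4 genes, and the hst2 value of the PCF11 mutant rests on 5 reads.

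The PCF11 pair did not enter the choice of the genes, apart from the ranking of sites, which used all 4 libraries. fhn1 had a distal share of 50.7% in the PCF11 mutant (46.5 to 54.9) and 8.38% in wild type in minimal medium (7.65 to 9.15). pvg1 had 93.3% in the PCF11 mutant (86.6 to 97.3) and 60.2% in wild type (54.5 to 65.7). ubp6 had 97.1% in the PCF11 mutant (91.6 to 99.4) and 29.6% in wild type (18.0 to 43.6). In these 3 genes the distal share was thus higher in the mutant.

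For hst2 the distal share was 40% in the PCF11 mutant, 2 of 5 reads (5.27 to 85.3), and 38% in wild type in minimal medium (24.7 to 52.8). With 55 reads at its main sites in the pair, hst2 was below the minimum of 100, and a difference was not detectable at this depth. The log2 change (PCF11 mutant over wild type in minimal medium) was 5.84 in ubp6 (4.18 to 7.50), 3.49 in fhn1 (3.21 to 3.76) and 3.02 in pvg1 (1.93 to 4.11). All 3 passed 2-fold toward the distal site, as did 57.7% of the 1749 genes tested, and 8-fold, as did 29.2%. Under other choices of sites or pseudocount not all of these calls held: with joining within 12 nt fhn1 was at 0.91, with ranking on wild type fhn1 was at 0.91 and ubp6 at 1.32, and with a pseudocount of 5 pvg1 was at 2.51. With the median of all genes at 1.42, and 10.2%, 25.3% and 29.0% of genes changed at least as far as ubp6, fhn1 and pvg1, the values do not set these genes apart in this pair.

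The form of the change in the PCF11 pair was again split. The fhn1 proximal site was 14.4-fold lower in the PCF11 mutant (12.8 to 16.3) and its distal site had a ratio of 0.782 (0.672 to 0.908). The pvg1 proximal site was 14.3-fold lower (6.74 to 36.4) and its distal ratio was 0.640 (0.495 to 0.822). In both genes each main site was thus lower in the mutant, the proximal one more so. In ubp6 the distal site had a ratio of 7.47 (4.38 to 13.6), and the proximal site, with 3 reads in the mutant, one of 0.0953 (0.0188 to 0.300).

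Proximal reads at least 2-fold lower were thus seen in 3 of the 3 genes tested, against 60.7% of all genes, and distal reads at least 2-fold higher in 1 of 3, against 39.2%. Of the 262 takeover genes of the PAB2 pair, 190 were tested in the PCF11 pair and 149 of these (78.4%) changed at least 2-fold toward the distal site there. Among the other genes of the PAB2 pair it was 775 of 1442 (53.7%). The median gap between the main sites was 256 nt in the takeover genes and 94 nt in the others, and the part of that gap in the difference was not tested.

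Wild type in minimal medium was also set against wild type in rich medium, a pair that shares its rich-medium library with the pair that chose the genes. The log2 change (minimal over rich) was 1.63 in ubp6 (0.43 to 2.82), 1.15 in hst2 (0.12 to 2.18), 0.83 in pvg1 (0.37 to 1.30) and -0.29 in fhn1 (-0.51 to -0.07). ubp6 and hst2 passed 2-fold toward the distal site, against 12.6% of 1909 genes, and the median of all genes was 0.20. The low distal share of wild type in rich medium was part of the choice, so nothing is read from these counts.

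For fhn1 both main sites were higher in minimal medium, at 1632 CPM in minimal and 722 CPM in rich medium for the proximal one and 149 CPM in minimal and 80.6 CPM in rich medium for the distal one. For pvg1 the proximal site stood at 40.2 CPM in minimal and 42.0 CPM in rich medium, and the distal site at 60.8 CPM in minimal and 35.5 CPM in rich medium. Both fhn1 sites were thus high in minimal medium, and of the pvg1 sites the distal one.

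**Figure D4:**
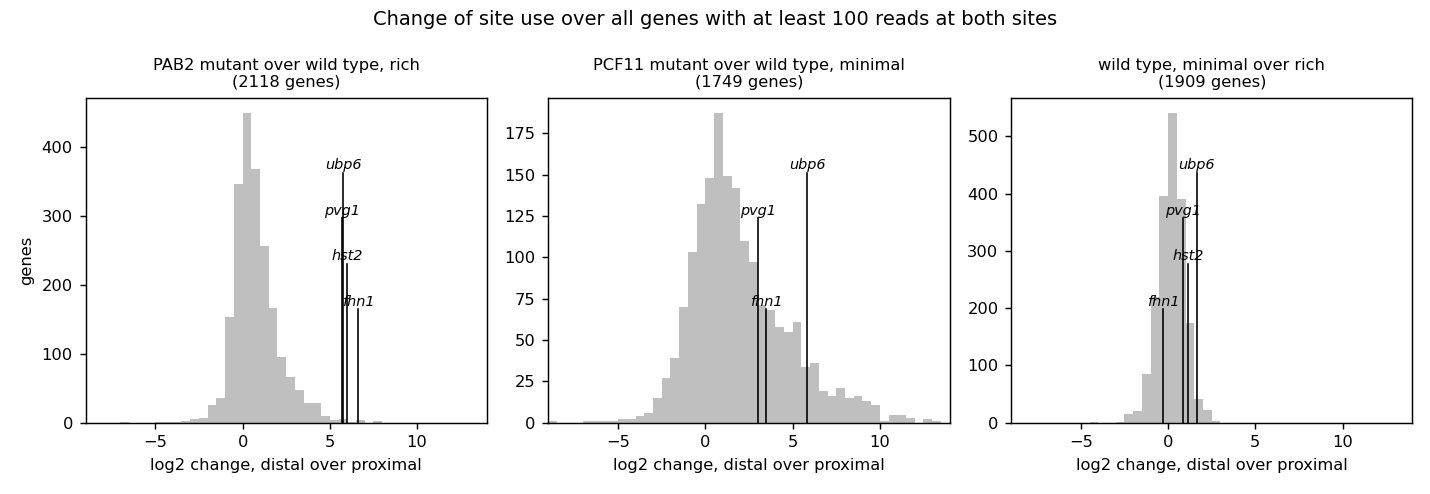
Number of genes (vertical axis) by log2 change of distal over proximal use (horizontal axis) in the 3 pairs of libraries, for genes with at least 100 reads at both sites together, with black lines at the 4 genes (hst2 had too few reads in the PCF11 pair). The 4 genes lie between 5.72 and 6.61 in the PAB2 pair that chose them, and fhn1, pvg1 and ubp6 between 3.02 and 5.84 in the PCF11 pair, where the whole distribution is wider.

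The mean distance of reads past the stop codon needs no choice of sites, though it depends on where the stretch ends. For fhn1 the PAB2 mutant averaged 1599.9 nt against 1017 nt in wild type in rich medium, and the PCF11 mutant 1545 nt against 1063.5 nt in wild type in minimal medium. For hst2 the PAB2 mutant averaged 526 nt against 225 nt in wild type in rich medium, and the PCF11 mutant 326 nt against 304 nt in wild type in minimal medium. The hst2 value of the PCF11 mutant rests on 25 reads, and apart from it the mutants were the longer ones in both genes.

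For pvg1 the PAB2 mutant averaged 444 nt against 254 nt in wild type in rich medium, and the PCF11 mutant 432 nt against 297 nt in wild type in minimal medium. For ubp6 the PAB2 mutant averaged 929 nt against 227 nt in wild type in rich medium, and the PCF11 mutant 1057 nt against 327 nt in wild type in minimal medium. In the PCF11 pair the difference was thus 729.6 nt for ubp6, 481 nt for fhn1, 135 nt for pvg1 and 22.7 nt for hst2, against a median of 86.4 nt over 3231 genes. A stretch ended at 1000 nt leaves out both main sites of fhn1 and the distal site of ubp6. fhn1 was then at 393 nt in the PAB2 mutant against 414 nt in wild type. In the PCF11 mutant it was at 411 nt against 432 nt in wild type. These fhn1 values rest on 9 reads in the PAB2 mutant and 745 in wild type in rich medium. In minimal medium they rest on 17 in the PCF11 mutant and 504 in wild type, so no reversal is read from them. ubp6 was then at 157 nt in the PAB2 mutant against 144 nt in wild type. On the full stretch, a difference at least as large as that of the PCF11 pair was found in 6.56% of genes for ubp6, 14.4% for fhn1, 41.2% for pvg1 and 70.4% for hst2. ubp6 and fhn1 thus lay well above the median lengthening of this mutant, pvg1 nearer to it and hst2 below it.

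The level of a gene counts all its reads between the start codon and the end of the stretch. The reads at both main sites are among them, so the level is tied to the form of the switch by construction. fhn1 stood at 324 CPM in the PAB2 mutant (307 to 341) and 1112 CPM in wild type in rich medium (1079 to 1146), 490 CPM in the PCF11 mutant (463 to 518) and 2147 CPM in wild type in minimal medium (2095 to 2200.3). hst2 stood at 14.6 CPM in the PAB2 mutant (11.2 to 18.7) and 48.4 CPM in wild type in rich medium (41.8 to 55.9), 10.03 CPM in the PCF11 mutant (6.49 to 14.8) and 39.6 CPM in wild type in minimal medium (32.8 to 47.3). Both mutants were below both wild types in these 2 genes, and for hst2 the intervals of the mutants overlapped, as did those of the wild types.

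pvg1 stood at 74.7 CPM in the PAB2 mutant (66.7 to 83.4) and 121 CPM in wild type in rich medium (109.9 to 132), 48.5 CPM in the PCF11 mutant (40.3 to 58.0) and 172 CPM in wild type in minimal medium (157 to 187). ubp6 had the opposite order, with 192 CPM in the PAB2 mutant (179 to 206) and 51.0 CPM in wild type in rich medium (44.1 to 58.6), 83.0 CPM in the PCF11 mutant (72.1 to 95.1) and 43.2 CPM in wild type in minimal medium (36.1 to 51.3). Both mutants were above both wild types, whose intervals overlapped. Of the 207 ubp6 reads in the PCF11 mutant, 40 lay before the stop codon. The ubp6 levels count the distal reads, whichever RNA these ends belong to.

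In the PAB2 pair the ratio of gene reads was 0.291 in fhn1, 0.301 in hst2, 0.620 in pvg1 and 3.77 in ubp6. Reads at least 2-fold lower, as in fhn1 and hst2, were found in 6.04% of 3475 genes and at least 2-fold higher, as in ubp6, in 6.39%. These levels come from the reads that chose the genes and are given as a description. In the PCF11 pair the ratio was 0.228 in fhn1 (0.214 to 0.243), 0.253 in hst2 (0.158 to 0.393), 0.282 in pvg1 (0.230 to 0.345) and 1.92 in ubp6 (1.54 to 2.41). Thus 3 of the 4 genes were at least 2-fold lower, against 26.8% of 3058 genes, and 0 of 4 at least 2-fold higher, against 23.3%. Scaling on total reads shifted every log2 ratio of this pair by -0.61, which leaves ubp6 at 0.33 in place of 0.94. On DESeq2 size factors ubp6 was at 1.03, past 2-fold, so its call depends on the scaling.

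The mutated genes were read in every library. pab2 had 156 reads in the PAB2 mutant and 218 in wild type in rich medium, 149 in the PCF11 mutant and 176 in wild type in minimal medium. pcf11 had 97 reads in the PAB2 mutant and 85 in wild type in rich medium, 204 in the PCF11 mutant and 92 in wild type in minimal medium. With the alleles not described, 3′ end reads can lie outside the mutated part and check neither label.

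The choice of sites limits the results of all 4 genes. Ranked on the wild-type libraries alone, the 2 most used sites were 394 and 1016 nt for fhn1, 17 and 364 nt for hst2, and 127 and 258 nt for ubp6, while those of pvg1 were unchanged. The log2 change of the PAB2 pair was then 0.48 in fhn1, 3.06 in hst2 and 0.82 in ubp6, so that fhn1 and ubp6 no longer passed 2-fold. With sites joined within 48 nt, pvg1 was compared between 334 and 469 nt and its change was 3.04. The distal sites of fhn1, hst2 and ubp6 belong to the main pair only when the mutants' reads are counted in the ranking. For hst2 that was not enough. Ranked on all libraries scaled to equal total, its sites were again 17 and 364 nt, with 6 reads at both in the PAB2 mutant.

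Genes with a pattern most like the 4 were sought among 1116 genes whose main sites together held at least 50 reads in each library, by the distance of their log2 distal over proximal values in the 4 libraries to the members' median. The nearest 5 were SPBC1347.09, SPAC2H10.01, SPCC191.01, mrpl8, for a mitochondrial ribosomal protein, and rpn9, for a proteasome regulatory subunit. SPBC1347.09 had a distal share of 86.9% in the PAB2 mutant and 26.6% in wild type in rich medium, 56.9% in the PCF11 mutant and 29.7% in wild type in minimal medium. The main sites of rpn9 lay 66 and 1852 nt past the stop codon, and its distal share was 81.0% in the PAB2 mutant and 30% in wild type in rich medium, 86.4% in the PCF11 mutant and 63.0% in wild type in minimal medium. In both genes, as in the members, the PAB2 mutant was high and wild type in rich medium low, which is what the search asked for.

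Other genes of the same pathways were taken from lists of eisosome genes, sirtuins, genes for galactose transfer, transport and pyruvylation, and deubiquitinating enzymes. Besides the members, 26 genes were listed, of which lsp1 and pvg4 were not found under those symbols, and 12 were tested in the PAB2 pair. Of these, 5 changed at least 2-fold toward the distal site and 0 toward the proximal one, against 33.9% and 3.92% of all genes. The median of the 12 was 0.93, against 0.53 over all genes.

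Those 5 were sle1, an eisosome gene, gma12, for a galactosyltransferase, and the deubiquitinating enzyme genes ubp11, ubp15 and uch2. ubp15 had a distal share of 77.9% in the PAB2 mutant and 48.8% in wild type in rich medium, with a log2 change of 1.87. gma12 had 75.9% in the PAB2 mutant and 40.9% in wild type, with a log2 change of 2.14. In sle1, ubp11 and uch2 the distal share stayed low in the mutant, at 6.12%, 7.52% and 8.47%, against 1.66%, 0.699% and 1.60% in wild type, so that the proximal site still held most reads. pil1, for the core eisosome protein, had a log2 change of 0.88 and a distal share of 13.9% in the PAB2 mutant and 7.98% in wild type.

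By list, 1 of the 2 other eisosome genes tested passed 2-fold toward the distal site in the PAB2 pair, 0 of 1 sirtuin, 1 of 4 genes of the galactose list and 3 of 5 deubiquitinating enzyme genes. In the PCF11 pair 9 of 12 tested list genes passed 2-fold toward the distal site and 1 toward the proximal one, against 57.7% and 9.78% of all genes. Read against these backgrounds, the lists are not set apart from other genes.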

How the data were processed

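The deposited values are read counts at single cleavage positions, split by chromosome and strand, which the authors did not normalize as far as the files show. Per the labels' protocols, 3′ ends of polyadenylated RNA were amplified. The aligner was Bowtie2 and the assembly ASM294v2, per the submitters' processing notes. The S. cerevisiae libraries of the series were not analysed here. The reference annotation is headed ASM294v3, so coordinates were checked: at positions with at least 20 reads, the base at the position was A in 85.8% to 87.5% and the next base in 0.523% to 0.954%, on chromosomes I, II and III. Positions were read as 1-based.

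From these counts, the reads of a gene were taken from its start codon to 2000 nt past its stop codon. The stretch ended earlier at the start codon of the next same-strand coding or structured RNA gene (1334 nt for hst2, 742 nt for pvg1). Sites and gene levels used all of these reads, and distances only those past the stop codon. Positions within 24 nt of the most used position were joined to a site, and sites with at least 5% of a gene's reads over the 4 libraries were kept. Site use is log2 of (distal + 1)/(proximal + 1), tested for size only, at 2-fold, for genes whose 2 sites together held at least 100 reads in a pair. The mean distance used genes with at least 20 reads in each library of the pair, and gene ratios used reads + 1 over TMM-scaled library sizes (edgeR 4.0.16, R 4.3.3) in genes with at least 100 reads. Shares have exact Clopper-Pearson intervals and ratios of reads have intervals from the exact binomial, while those of a log2 change of site use come from the counting variance. With 1 library in each group there is no test across libraries and no p-value. Scripts ran on Python 3.11.15 (numpy 2.4.6, pandas 2.3.3, scipy 1.17.1), and the site step was tested on simulated data.

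The members, lists and settings were chosen with earlier results of these data known. The genes named are the members, annotated genes within 2000 nt past their stop codons, pab2, pcf11, the 5 genes of most similar site use and list genes past 2-fold in the PAB2 pair, with pil1 added after its values were seen. The alternatives were other joining distances, rankings of sites, ends of the stretch, pseudocounts, read minimums and scalings (total reads, DESeq2 1.42.0), and leaving out reads in noncoding RNAs.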

Additional observations from a re-analysis of the deposited data

How the results depend on the processing

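All 32 alternative values of the members' log2 change of site use were above 0 in the PAB2 pair and 29 were at least 1. That pair chose the genes, so its direction is no check. Some alternatives, such as the other end of the stretch, left the compared reads unchanged. In the PCF11 pair, without hst2, which was below the read minimum, 24 of 24 were above 0 and 22 at least 1, and in the pair of wild types 27 of 32 were above 0. The sites themselves decided the size. In the PAB2 pair, joining within 12 nt gave 0.48 for fhn1 (sites at 394 and 1016 nt), joining within 48 nt gave 6.10 for fhn1 and 3.04 for pvg1, and ranking on wild type gave 0.48 for fhn1, 3.06 for hst2 and 0.82 for ubp6. Ranking on libraries of equal total gave 3.06 for hst2 (sites at 17 and 364 nt). Without reads in noncoding RNAs fhn1 gave 8.75, between sites at 394 and 1957 nt. Its distal share was then 40% of 15 reads in the PAB2 mutant and 0% of 615 in wild type in rich medium. The value thus rests on few reads, and the distal site did not take over. In the PCF11 pair, fhn1 gave 0.91 with joining within 12 nt, 0.91 with ranking on wild type and 11.89 without noncoding RNA reads, and ubp6 gave 1.32 with ranking on wild type. In the pair of wild types, fhn1 gave 1.50 with joining within 12 nt, -0.70 within 48 nt, 1.50 with ranking on wild type and 1.70 without noncoding RNA reads, against -0.29 as reported, so its direction there is not settled, and pvg1 gave 0.017 with joining within 48 nt. In these alternatives the compared sites, or the reads at them, were others by construction.

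On total reads, the log2 ratio of gene reads was -1.95 for fhn1 in the PAB2 pair, 1.01 for fhn1 in the pair of wild types, and -2.74 for fhn1, -2.43 for pvg1 and 0.33 for ubp6 in the PCF11 pair. On DESeq2 size factors it was -2.04 for fhn1 and 1.03 for ubp6 in the PCF11 pair. The share of all genes past 2-fold toward the distal site in the PAB2 pair was 36.4% with at least 50 reads, 31.7% with at least 200, 28.8% with a pseudocount of 5, 28.6% and 40.6% with joining within 12 and 48 nt, and 28.3% with ranking on wild type. In the PCF11 pair it was 54.2% with a pseudocount of 5, 50.8% and 63.3% with joining within 12 and 48 nt, and 49.8% with ranking on wild type. In the pair of wild types it was 15.1% with at least 50 reads, 10.7% with at least 200 and 9.11% with a pseudocount of 5.

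No paired analysis was possible because each S. pombe group has 1 library. The PAB2 mutant was read only in rich medium and the PCF11 mutant only in minimal medium. Differences between the mutants therefore cannot be told apart from the medium. Library differences that have nothing to do with genotype or medium cannot be told apart from them, and the reads of hst2 limit its values most.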
